A study of Mus musculus with 21 samples.

Results

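The comparison concerns domains of monoubiquitinated histone H2B (H2Bub1) in mouse embryonic stem (ES) cells with Fbxl19 knocked down, before and after 4 days of differentiation. Its members are every domain in the 2 lists deposited for these states, 1813 in knockdown ES cells and 1090 in differentiated knockdown cells, or 2903 of the 18181 domains in the 5 H2Bub1 lists of the series. They were taken by list, with no value used to select them. A domain was called kept, or shared, where it overlapped a domain of the other state by at least 1 bp, lost where a knockdown ES domain had no such partner, and new where a differentiated knockdown domain had none.

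The series holds 21 samples of chromatin immunoprecipitation followed by sequencing (ChIP-seq) in the mouse ES line J1, and 4 of these belong to the knockdown lists. Fbxl19_KD_H2Bub1 is 2 samples of J1 ES cells with Fbxl19 knocked down, and Fbxl19_KD_differentiation_H2Bub1 is 2 samples of knockdown cells at day 4 of differentiation, the day being read from the name of the list in the labels. The cells set beside them had no knockdown in their titles: 3 samples of ES cells (H2Bub1) and 2 of cells at day 4 (Differentiation_H2Bub1), called normal below. H2Bub1 was also profiled in 3 samples of an ES clone with more than 5-fold overexpression of Fbxl19 (OE-high). Tagged Fbxl19 was pulled down from that clone and from a clone at sub-endogenous level (OE-low), 2 samples each, and Rnf20 from a single sample of cells with BirA, a biotin ligase. The labels give culture with leukemia inhibitory factor for every sample. The sources used here do not give the means of knockdown, the number of clones behind it or the way differentiation was started, and the level of Fbxl19 after knockdown was not analysed here.

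Monoubiquitin is placed on H2B by the E3 ligase Rnf20 with its partner Rnf40, and H2Bub1 accompanies RNA polymerase II across the bodies of transcribed genes. Fbxl19 is an F-box protein whose CXXC zinc finger binds unmethylated CpG, the state of most CpG islands at promoters. The series title places Fbxl19 upstream of Rnf20 at CpG islands, and the pair of knockdown lists addresses what happens to H2Bub1 on differentiation when Fbxl19 is reduced.

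Each H2Bub1 list combines samples of its group, so there was no spread between replicates to set a difference against and no test was made. The labels tie the OE-high H2Bub1 list to some, not all, of the 3 samples of its group. Every interval of a share is an exact Clopper-Pearson 95% interval and covers only the counting of domains. The interval of a difference between shares combines the bounds of both shares. Intervals of peaks per Mb cover only the counting of peaks. The track line of the knockdown ES list carries the number 46 with the suffix M and that of the differentiated knockdown list 41, against 60 for normal ES cells and 36 for normal differentiated cells. What these count is not stated, and depth per sample is unknown. No gene is named, because no annotation or sequence of the build of the lists, mm9, was used here.

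The differentiated knockdown cells had fewer and slightly shorter H2Bub1 domains than the knockdown ES cells. The 1090 domains were 0.601 times the number in knockdown ES cells, and they covered 15.6 Mb against 41.9 Mb, 0.372 times the length. Median domain length was 8000 bp (quartiles 4200 and 17400) after differentiation and 9600 bp (quartiles 4200 and 24200) before it. Long domains differed most in number, with 52 domains of at least 50 kb after differentiation and 223 before it. In normal cells the lists went the other way, with 1.74 times the number of domains and 2.71 times the covered length after differentiation. The difference between the transitions was not tested, since each state is a single combined list.

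Most domains of knockdown ES cells were not listed after differentiation. Of the 1813, 659 (36.3%, interval 34.1 to 38.6) were kept and 1154 (63.7%, interval 61.4 to 65.9) were lost. Of the 1090 differentiated knockdown domains, 661 had a counterpart and 429 (39.4%, interval 36.4 to 42.3) were new. In normal cells 74.9% of ES domains (interval 73.3 to 76.4) were kept and 25.1% lost, while 58.7% of differentiated domains (interval 57.3 to 60.0) were new. The kept shares lay closer together once the longer list of each transition was cut, by score, to the size of the shorter. They were then 46.0% (interval 43.0 to 49.0) in the knockdown and 54.7% (interval 52.9 to 56.6) in normal cells, and the new share in the knockdown was 53.6%. The cut differed between the transitions. It left 1090 domains per list in the knockdown, where the ES list was trimmed. In normal cells it left 2937, and the differentiated list was trimmed.

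Longer and higher-scoring domains were kept more often. The kept share was 20.5% (interval 14.7 to 27.3) of the 171 knockdown ES domains under 2 kb, 32.6% at 5 to 10 kb and 49.3% (interval 45.0 to 53.5) of the 548 domains of 20 kb or more. Kept domains had a median score, the authors' own value for a domain, of 9.81 against 8.33 for lost domains. With the list cut by score into 4 groups of equal size, the kept share was 22.0%, 25.2%, 39.5% and 58.7% from the lowest to the highest, although the highest group held the shortest domains (median 6400 bp). New domains showed little dependence on length above 2 kb, at 35.5% to 38.8% of each length class, but made up 66.3% of the 80 differentiated knockdown domains under 2 kb.

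**Figure D1:**
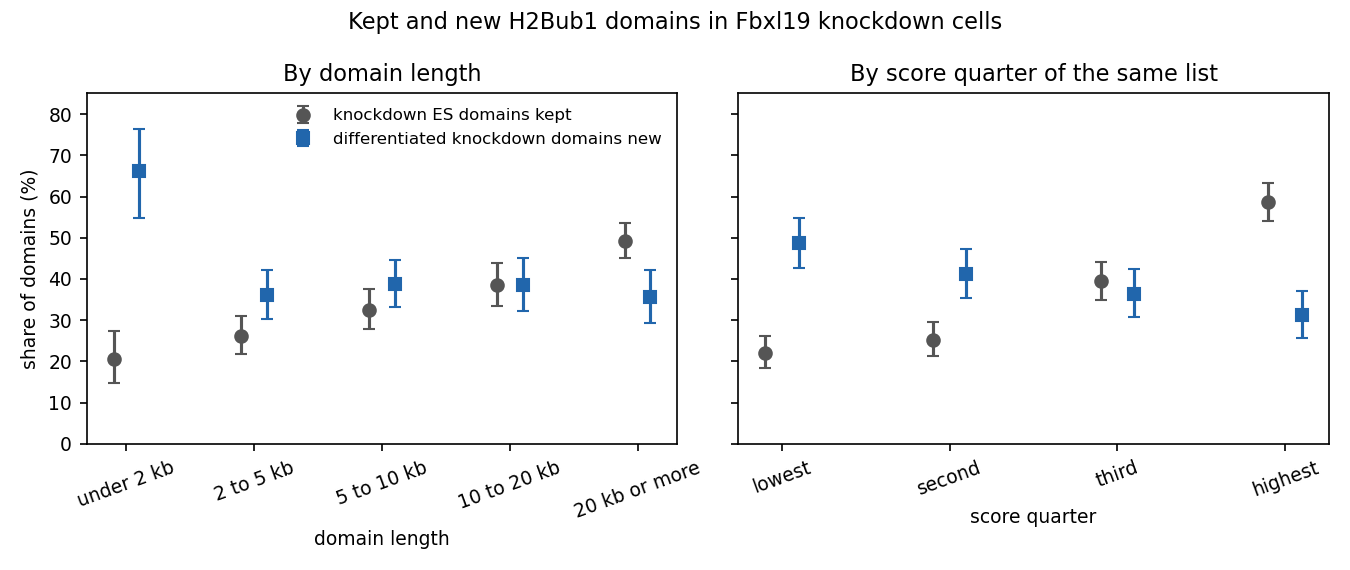
Share of knockdown ES domains that were kept (grey circles) and of differentiated knockdown domains that were new (blue squares), in percent, by domain length and by 4 score groups of equal size in the domain's own list; bars are exact 95% intervals of counting. The kept share goes from 20.5% to 49.3% with length and from 22.0% to 58.7% with score, while the new share is highest, 66.3%, under 2 kb.

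Where a domain stood in both states, it was usually shorter after differentiation. The 659 kept domains and their 661 counterparts merged into 639 shared regions, with a median H2Bub1 length of 15000 bp in knockdown ES and 8800 bp in differentiated knockdown cells. The median ratio of length, differentiated over ES, was 0.78 (quartiles 0.43 and 1.00). The later state was the shorter in 461 regions (72.1%), the longer in 138 (21.6%) and of equal length in 40. A change of at least 1.5-fold, used here as the threshold for resized, made 266 regions shorter (41.6%) and 47 longer (7.36%). In the 1962 shared regions of normal cells the median ratio was 1.43, with 7.49% shorter and 48.1% longer by that threshold. Lengths in the knockdown states went together across the 639 regions (Spearman's rho 0.67) and scores less so (rho 0.28), as descriptions over regions that share their libraries.

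**Figure D2:**
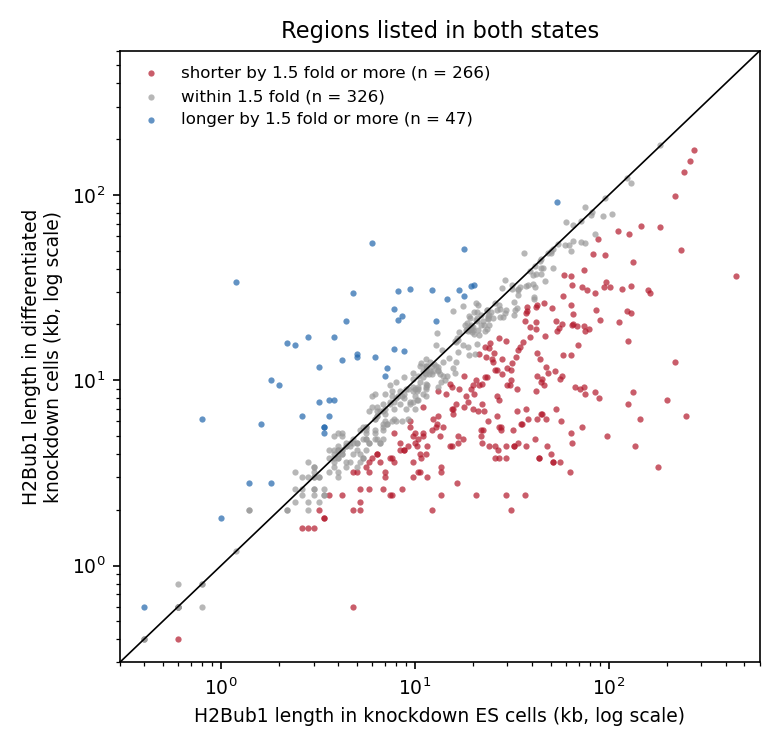
H2Bub1 length per shared region in knockdown ES cells (x axis, kb, log scale) and in differentiated knockdown cells (y axis, kb, log scale), each point 1 of the 639 regions, with the line of equality. The 266 red points are shorter by 1.5-fold or more and spread furthest below the line at long domains, and the 47 blue points are longer.

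Long domains gave up most of their length. Regions with at least 20 kb of H2Bub1 in knockdown ES cells numbered 268 and went from a median of 41900 bp to 19600 bp, with a median ratio of 0.44, and 175 of them (65.3%) were shorter by the threshold. Regions of 2 to 5 kb went from 3600 bp to 3600 bp, with a median ratio of 1.00. These classes rest on the length in the earlier of the states compared. In base pairs, 9.05 Mb were in H2Bub1 domains in both states, 21.6% of the knockdown ES length and 57.9% of the differentiated length. A further 9.58 Mb were given up inside shared regions and 23.3 Mb went with lost domains, while 0.813 Mb were gained inside shared regions and 5.76 Mb came with new domains. Most of the gained length, then, lay at new sites rather than at the edges of old ones.

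Resizing was seldom a matter of splitting or joining. Of the 639 shared regions, 600 had a single domain in each state, 21 had a single ES domain split into 2 or more, and 18 had 2 or more ES domains joined. The region chr1:74281200-74353199 held 1 knockdown ES domain and 3 differentiated domains, and chr1:173366200-173391199 held 3 and 1. New and lost domains seldom lay next to a domain of the other state. Only 1.40% of new domains lay within 5 kb of a knockdown ES domain and 2.86% of lost domains within 5 kb of a differentiated one, and within 100 kb these shares were 16.1% and 18.5%.

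In the 600 regions with a single domain in each state, shortening was mostly from 1 side. The differentiated domain lay inside the ES domain in 381 regions (63.5%), contained it in 61 (10.2%), was staggered in 131 and had identical ends in 27. Both ends stayed within 1 kb in 174 regions (29.0%), 1 end stayed in 346 (57.7%), and neither did in 80 (13.3%). Where 1 end stayed, the other moved inwards in 282 regions, by a median of 7200 bp, and outwards in 64, by a median of 4500 bp.

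The end that stayed was mostly the end with Fbxl19. Fbxl19 summits, measured in undifferentiated OE-high cells and used here only as positions, lay within 1 kb of exactly 1 end of the knockdown ES domain in 321 of the 518 such regions of at least 4 kb. That end stayed within 1 kb in 296 regions (92.2%, interval 88.7 to 94.9) and moved inwards by over 1 kb in 20 (6.23%). The opposite end stayed in 83 regions (25.9%, interval 21.2 to 31.0), moved inwards in 202 (62.9%) and outwards in 36 (11.2%), with a median shift of 2400 bp inwards. In the 173 regions with no summit at either end, 43.1% of ends stayed and 51.4% moved inwards. OE-low Fbxl19 summits gave 92.6% and 27.9% for the end with the summit and the opposite end (68 regions), and Rnf20 peaks gave 90.6% and 28.7% (171 regions). With the summit placed at an end of the differentiated domain in place of the ES domain, the shares were 82.7% and 23.9%.

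In normal cells the end with Fbxl19 stayed as well, but the opposite end moved the other way. Of 848 regions with an OE-high Fbxl19 summit at 1 end of the ES domain, that end stayed in 698 (82.3%) and the opposite end in 212. The opposite end moved outwards by over 1 kb in 494 (58.3%) and inwards in 142 (16.7%). The far end thus went outwards in normal differentiation about as often as it went inwards in the knockdown. The difference was not tested, and it was read from combined lists.

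**Figure D3:**
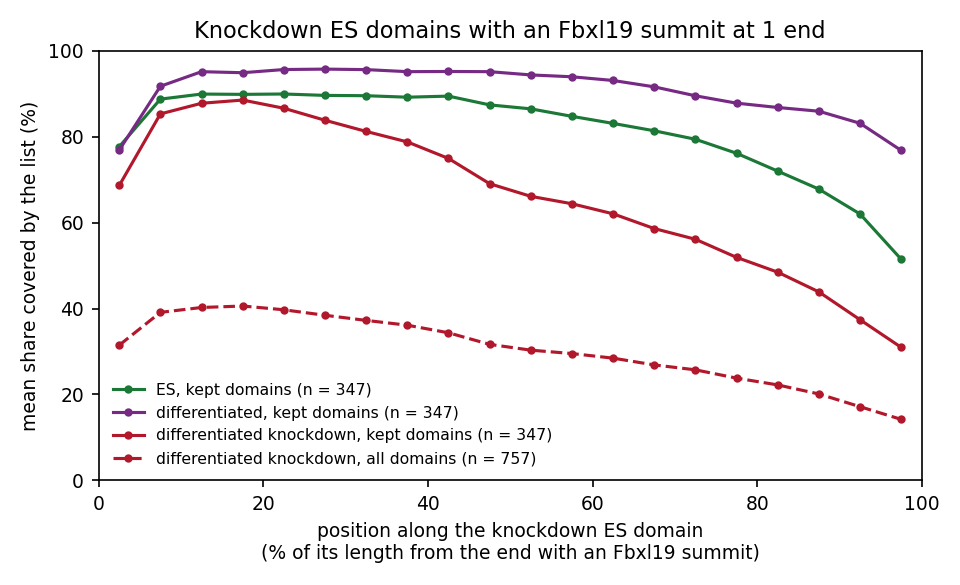
Mean share of base pairs covered by each list (y axis, percent) along knockdown ES domains of at least 4 kb with an OE-high Fbxl19 summit within 1 kb of 1 end, placed at the left (x axis, percent of domain length). Solid lines are the 347 kept domains and the dashed line all 757; the differentiated knockdown line is 68.6% in the first of 20 steps, 88.5% in the fourth and 31.0% in the last, while the normal differentiated line is 76.9%, 94.9% and 76.8% at these places.

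Along the domains, coverage was highest a little inside the end with the summit and lowest at the far end. In the 347 kept domains with a summit at 1 end, differentiated knockdown domains covered 68.6% of the base pairs in the first of 20 equal steps from that end, 88.5% in the fourth, 69.0% in the tenth and 31.0% in the last. The first step was thus level with the tenth. Normal ES domains covered 77.7%, 89.8%, 87.4% and 51.5% at these steps, and normal differentiated domains 76.9%, 94.9%, 95.1% and 76.8%, so the first step was below the fourth in each list. The kept domains were chosen for an overlap with the differentiated knockdown list and with no regard to where in the domain it lay. Rnf20 peaks in place of Fbxl19 summits (181 kept domains) gave 86.7%, 66.7% and 28.0% for differentiated knockdown domains in the fourth, the tenth and the last step. Over all 757 domains with a summit at 1 end, lost ones included, the differentiated knockdown list covered 31.5% in the first step, 40.6% in the fourth and 14.2% in the last. Domains with a summit at 1 end were kept in 45.8% of cases (interval 42.2 to 49.5), against 32.2% (interval 28.5 to 36.1) of the 593 with a summit at neither end, which were longer (median 15600 bp against 13200 bp).

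Some of the strongest shortening was in regions with far more H2Bub1 length in knockdown ES than in normal ES cells, counted inside the region. Among the 5 regions of smallest ratio this held for 3, all on chromosome 1. The region chr1:134160600-134411199, with 14 OE-high Fbxl19 peaks, went from 250600 bp to 6400 bp, and normal ES cells had 57400 bp there. At chr1:39424400-39560999 the length went from 136400 bp to 4400 bp, against 14800 bp in normal ES cells. At chr1:134839800-135038599 it went from 198800 bp to 7800 bp, against 74200 bp. In the remaining regions the normal ES domain was long as well. The region chr15:88518600-88696999 went from 178400 bp to 3400 bp, 52.5-fold shorter, with 178400 bp in normal ES cells, and chr5:125861600-126006799 went from 145200 bp to 6200 bp, with 119400 bp. Normal differentiated cells had between 50400 bp and 82600 bp in these 5 regions. The longest shared region, chr11:4546800-4999199, went from 452400 bp to the 36600 bp between 4962400 and 4998999, at its right end.

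Lengthening was rarer than shortening. Among shared regions with at least 2 kb in both lists, the largest ratio, 9.20, was chr1:80282000-80337199, where 2 short domains of 6000 bp in all became 1 of 55200 bp. Next came chr1:10208000-10223799, from 2200 bp to 15800 bp, and chr11:104396400-104412399, from 2400 bp to 15400 bp. At chr11:74507800-74538199 the length went from 4800 bp to 29600 bp, and at chr6:35472600-35489799 from 2800 bp to 17200 bp. Normal differentiated cells had between 15400 bp and 55200 bp at these 5 places, and normal ES cells between 0 and 19000 bp. In each of them the differentiated knockdown length was within 400 bp of the normal differentiated length. Normal lengths were counted only inside the region, which the differentiated knockdown domain nearly filled. A normal domain running beyond the region would therefore give a similar value.

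At loci with H2Bub1 in all 4 states, knockdown cells began level with normal cells and ended shorter. The ES, differentiated and both knockdown lists merged into 5780 loci, of which 569 were in all 4. Median H2Bub1 length per locus was 17200 bp in normal ES cells and 16600 bp in knockdown ES cells, and the median ratio of knockdown to normal was 1.01. After differentiation it was 27000 bp in normal and 9200 bp in knockdown cells, a median ratio of 0.48. The median change on differentiation was 1.19-fold in normal cells and 0.73-fold in the knockdown. In 272 loci (47.8%) the domain lengthened in normal cells and shortened in the knockdown, in 25 it did the reverse, in 141 it shortened in both and in 90 it lengthened in both.

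The lost domains were listed in normal ES cells about as often as all regions, and in normal differentiated cells less often. Of the 1154, 874 (75.7%, interval 73.2 to 78.2) met a domain of normal ES cells and 865 (interval 72.4% to 77.4%) a domain of normal differentiated cells, and 687 (59.5%) met both. Among all 2222 regions, 1666 (interval 73.1% to 76.8%) met a normal ES domain, 82.5% a normal differentiated domain and 64.4% both. Of the lost domains, 102 (8.84%) met neither normal list, against 6.89% of all regions. No other H2Bub1 list was met by 48 lost domains (4.16%), with a median length of 1000 bp, against 3.74% of all regions. Shared regions were almost all listed in normal cells, 93.7% in ES and 95.1% in differentiated cells. By the rule for named regions, the longest lost domains were chr19:4711000-4968799 (257800 bp), chr10:62233400-62487199 (253800 bp), chr1:72203800-72449599 (245800 bp), chr4:146925200-147170399 (245200 bp) and chr11:8326800-8565399 (238600 bp). Each held from 3 to 10 OE-high Fbxl19 peaks and from 4 to 17 Rnf20 peaks. Normal differentiated cells had between 15600 bp and 128400 bp of H2Bub1 in these 5 domains, so none was full length there either.

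The new domains met normal differentiated domains about as often as all regions did, and normal ES domains less often. Of the 429, 360 (83.9%, interval 80.1 to 87.3) met a normal differentiated domain, against 82.5% of all 2222 regions. A normal ES domain was met by 193 (45.0%, interval 40.2 to 49.8), against 1666 of all regions (interval 73.1% to 76.8%). Of the 360, 188 met no normal ES domain and 172 did. Thus 43.8% of new domains were at sites listed only after differentiation in normal cells, against 18.1% of all regions. A further 40.1% were at sites that knockdown ES cells lacked but normal cells had in both states. Among all regions, 64.4% met both normal lists. Another 21 (4.90%) met a normal ES domain but no normal differentiated domain, against 10.6% of all regions. The other 48 (11.2%, interval 8.37 to 14.6), with a median length of 1000 bp, met neither normal list, against 6.89% of all regions. Of the 3006 domains new in normal differentiation, 215 (7.15%, interval 6.26 to 8.13) met a differentiated knockdown domain, and 174 (5.79%) did so without meeting a knockdown ES domain. Among all 5125 normal differentiated domains, 968 (18.9%) met a differentiated knockdown domain. The longest new domains were chr8:125437000-125566199 (129200 bp), chr14:120675400-120794799 (119400 bp), chr1:85227200-85343799 (116600 bp), chr16:38089800-38186999 (97200 bp) and chr16:94791600-94885599 (94000 bp). The first and the fourth were covered along their full length in the ES, differentiated and OE-high lists, and the fifth in the last 2 of these but not in ES cells. The third had 110200 bp in normal ES cells and none in normal differentiated cells.

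The new share depended on the chromosome. On chromosomes 1, 11 and 17, a set chosen after the values were seen, 45 of 351 differentiated knockdown domains were new (12.8%), against 384 of 739 (52.0%) elsewhere. The lowest single values were 9.76% on chromosome 17, 10.8% on chromosome 11 and 15.8% on chromosome 1, and the next was 36.8% on chromosome 13. The same chromosomes held 41.6% of the knockdown ES domains, 32.2% of the differentiated knockdown domains, 31.6% of normal ES domains and 23.1% of normal differentiated domains, so the knockdown ES list was richest there. The kept share differed less, at 40.0% on these chromosomes (44.2%, 42.2% and 25.9% on chromosomes 1, 11 and 17) and 33.7% (interval 30.9 to 36.7) elsewhere. The median length ratio was 0.75 on the 3 chromosomes and 0.80 elsewhere. On chromosome X, 1 of 16 knockdown ES domains was kept.

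**Figure D4:**
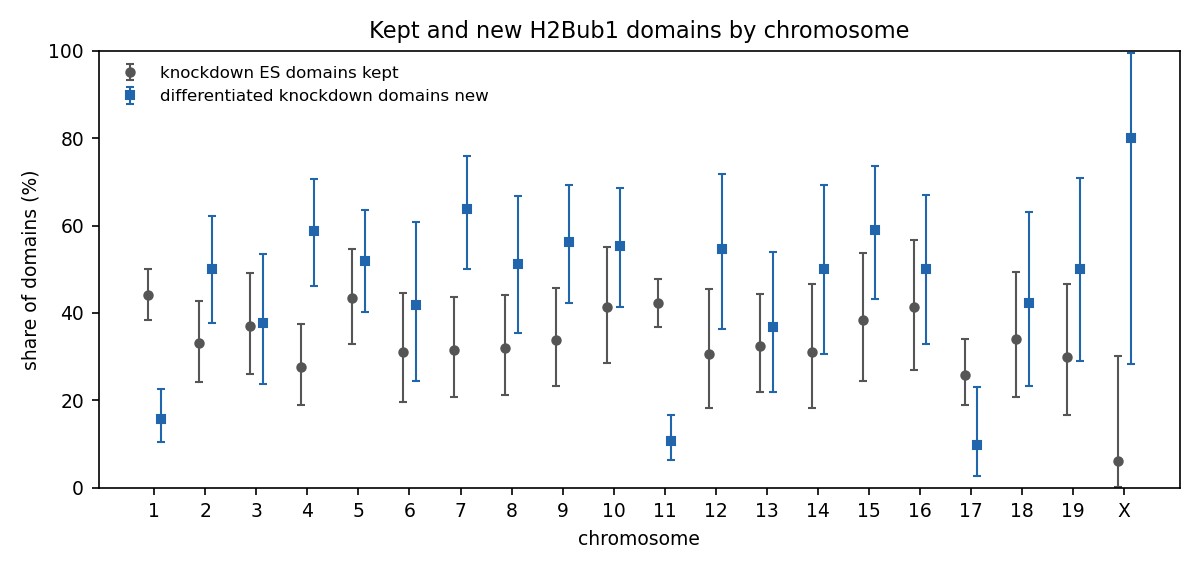
Share of knockdown ES domains kept (grey circles) and of differentiated knockdown domains that were new (blue squares) on each chromosome, in percent, with exact 95% intervals of counting. The new share is 15.8% on chromosome 1, 10.8% on chromosome 11 and 9.76% on chromosome 17, below all other chromosomes, whereas the kept share on chromosomes 1 and 11 (44.2% and 42.2%) is near that on chromosomes 5 and 10.

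Neighbouring domains shared their fate to a degree. A knockdown ES domain whose nearest neighbour in the list was kept was itself kept in 42.9% of cases (interval 39.1 to 46.8), against 32.7% (interval 30.0 to 35.5) where that neighbour was lost. Without chromosomes 1, 11 and 17 these shares were 39.9% and 30.6%.

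Over all lengths, shared regions carried Fbxl19 and Rnf20 peaks more often than lost or new regions, which did not hold in every length class. Fbxl19 peaks of the OE-high clone were present in 82.9% of shared regions (530 of 639, interval 79.8 to 85.8), 60.3% of lost regions (696 of 1154, interval 57.4 to 63.1) and 67.4% of new regions (289 of 429, interval 62.7 to 71.8). Among all 2222 regions the share was 68.2%. An Rnf20 peak lay in 51.2% (interval 47.2 to 55.1), 36.9% (interval 34.1 to 39.8) and 35.2% (interval 30.7 to 39.9), against 40.7% of all regions. OE-low Fbxl19 peaks were present in 21.8% of shared, 13.5% of lost and 10.5% of new regions, against 15.3% of all. OE-high Fbxl19 and Rnf20 together were found in 45.4% of shared, 29.4% of lost and 30.1% of new regions, and neither in 11.3%, 32.1% and 27.5%.

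Length differed between these classes, and shared regions, which merge 2 lists, were the longest (median 16600 bp, against 7800 bp for lost and 7200 bp for new regions). Among regions of 2 to 5 kb, Fbxl19 lay in 74.3% of shared (interval 62.4 to 84.0), 46.1% of lost (interval 40.0 to 52.2) and 73.7% of new regions (interval 63.6 to 82.2). At 5 to 10 kb the shares were 84.8%, 65.8% and 69.6%. At 10 to 20 kb they were 78.6%, 76.2% and 85.2%, with the new regions highest, and under 2 kb Fbxl19 lay in 0 of 18 shared regions (upper bound of the interval 18.5%), 6.62% of lost and 13.2% of new regions. At 20 kb or more the shares were 91.2%, 83.1% and 72.8%, and those of OE-low Fbxl19 in shared and lost regions were 25.8% and 26.3%. For Rnf20 under 2 kb the shares were 88.9% (16 of 18), 22.8% and 18.9% in shared, lost and new regions. They were 45.7%, 26.6% and 41.1% at 2 to 5 kb, and 43.2%, 32.7% and 36.6% at 5 to 10 kb. At 10 to 20 kb the Rnf20 shares were 38.9%, 35.7% and 38.6%. At 20 kb or more they were 59.0%, 58.6% and 33.3% (interval 23.2 to 44.7 for new regions), so long lost and long shared regions did not differ beyond counting error. The Fbxl19 difference between shared and lost regions was 22.6 percentage points over all lengths and 12.6 points without chromosomes 1, 11 and 17. With the top 50% of each list by score, it was 4.30 points (interval -3.03 to 11.6, which includes 0). That setting cut the Fbxl19 peaks as well as the domains, and Fbxl19 then lay in 48.3% of shared and 44.0% of lost regions. The effect of cutting the domains alone was not tested. Regions shorter by 1.5-fold or more held Fbxl19 in 91.4% of cases, those within 1.5-fold in 76.7% and those longer in 78.7%, with median region lengths of 29400 bp, 10500 bp and 14400 bp.

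**Figure D5:**
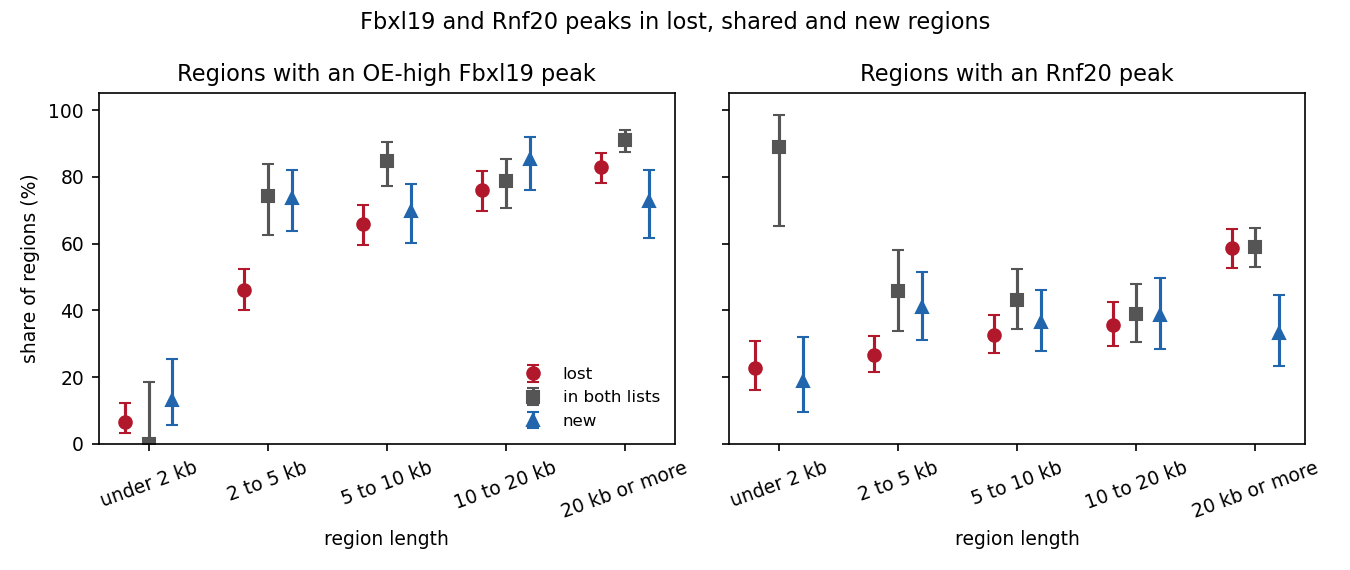
Share of lost (red circles), shared (grey squares) and new (blue triangles) regions that hold an OE-high Fbxl19 peak (left) or an Rnf20 peak (right), in percent, by region length, with exact 95% intervals of counting. Fbxl19 separates lost from shared regions most at 2 to 5 kb (46.1% against 74.3%). Rnf20 is as frequent in lost (58.6%) as in shared regions (59.0%) at 20 kb or more, but not under 2 kb (22.8% against 88.9%). The last value is 16 of only 18 shared regions.

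Within the domains, the retained part was not richer in Fbxl19 summits but was richer in Rnf20. These densities are for listed base pairs, whereas the comparison of ends also took summits up to 1 kb outside a domain. OE-high Fbxl19 summits numbered 41.1 per Mb in base pairs listed in both states, 41.5 per Mb in the part given up inside shared regions, 40.9 per Mb in lost domains and 38.2 per Mb in new domains. OE-low summits gave 8.07, 7.93, 8.28 and 5.91 per Mb in the same order. Midpoints of Rnf20 peaks gave 53.0 per Mb (interval 48.3 to 57.9, for counting error only) in base pairs of both states and 19.5 per Mb (interval 16.8 to 22.5) in the part given up, with 35.3 per Mb in lost and 31.1 per Mb in new domains. Rnf20 peaks were packed in some places. Without the 7 regions that held 15 or more of them, the values were 44.9 per Mb in both states and 19.7 per Mb in the part given up.

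The highest scores were mostly on regions under 10 kb. Among shared regions the leading lower scores were those of chr17:39979800-39985999, chr16:57391200-57391999, chr11:108872800-108873599, chr9:123370800-123371399 and chr8:15519600-15520199, all 5 in normal ES cells too and each with 1 Rnf20 peak. The leading new domains were chr9:2999800-3038399 (score 208), chr2:98506000-98507599 (score 177), chr12:3109800-3110199 (score 113), chr2:98502200-98504399 (score 108) and chr9:35112600-35113399 (score 102). All 5 were in both normal lists, held no Fbxl19 or Rnf20 peak, and were in neither the knockdown ES nor the OE-high list. The leading lost domains included 3 of 600 to 800 bp, on chromosomes 3, 2 and X, that no other H2Bub1 list held, and a 5600 bp domain at chr17:3079200-3084799 with 2 OE-high Fbxl19 peaks that normal differentiated and OE-high cells had in full. Domains under 1 kb numbered 70 in knockdown ES (median score 20.5, against 8.72 for the rest) and 56 in differentiated knockdown cells (14.3 against 8.37), and 17 and 18 of them had a counterpart. OE-high Fbxl19 lay in 4.29% and 1.79% of the domains under 1 kb, and Rnf20 in 50.0% and 37.5%. Among all merged regions under 2 kb, OE-high Fbxl19 lay in 7.73% and Rnf20 in 27.5%. The leading new domains, the longer ones included, also scored far above the median of 8.43 in their list. Whether these or the short, high-scoring regions carry H2Bub1 was not tested. Without domains under 2 kb the kept share was 37.6% and the median length ratio 0.77.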

How the data were processed

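Tools listed in the submitters' processing notes are BWA 0.5.9-r16 and MACS and the build is mm9, without a role for any of them. Track lines of the H2Bub1 lists end in BCP, per the file headers. How their deposited score was computed is not stated. It is above 7 in every line, and a further deposited column holds domain length in base pairs, on a 200 bp grid. The deposited scores of the Fbxl19 peaks (no header) and Rnf20 peaks (names beginning with MACS) were not used for selection in the main results. They were used in the alternative that kept the top-scoring part of each list. Both knockdown lists are named as combined, and samples titled as input were not analysed here. No input is titled for the differentiated knockdown. List name and sample titles tied the OE-high Fbxl19 list to its samples, whose description names another list.

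Domains were read as counted from 0, the Fbxl19 lists as counted from 1, and positions are printed on mm9 counted from 1. Overlapping domains of both states were merged into regions, and length per region is the sum of a list's domains. Kept and new shares, length ratios, shifts of ends and peaks per region were described without tests. Summits within 1 kb of an end were used for domains of at least 4 kb. Regions named were, per class, the 5 of highest score (the lower of both lists for shared regions) and the 5 longest, plus the 5 largest and 5 smallest ratios (2 kb or more in both lists) and the 3 with most domains joined, leaving out chromosome 18. The members, lists and descriptions were chosen with earlier results of these data known. Alternatives are in the closing section. The code was tested on simulated data. Python 3.11.15, NumPy 2.4.6, pandas 2.3.3, SciPy 1.17.1 and matplotlib 3.10.9 were used.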

Additional observations from a re-analysis of the deposited data

How the results depend on the processing

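Depth per sample is unknown, each state is 1 combined list, and no replicate could be left out. No paired analysis was possible because the lists combine the replicates and no result comes from a test. Of 131 values under alternatives, 80 stayed within the counting interval of the reported value and 51 moved outside it. Most are shares, which have no direction to change. The kept share in the knockdown (36.3%) was 24.9% with 50% overlap, 29.2% with the top 50% by score, 46.0% with lists of the same size, 38.7% with domains joined over gaps of 5 kb and 33.7% without chromosomes 1, 11 and 17, an alternative chosen after seeing the data. The new share (39.4%) was 51.6% with the top 50%, 53.6% with equal list sizes and 52.0% without those chromosomes, a majority in place of a minority. The kept share in normal cells (74.9%) was 71.3% with 50% overlap, 55.7% with the top 50%, 54.7% with equal list sizes, 78.4% with domains of at least 2 kb and 70.8% without those chromosomes. It was above the knockdown value under each of these settings. With lists of the same size the median length ratio was 0.82 and 36.4% of shared regions were shorter by 1.5-fold, and 32.6% were shorter with a threshold of 2-fold. New regions listed in normal differentiated cells (83.9%) were 63.0% with the top 50%, 87.7% with equal list sizes and 90.9% with domains of at least 2 kb. The Fbxl19 difference between shared and lost regions (22.6 points) was 4.30 with the top 50%, 17.9 with lists of the same size, 17.8 with domains of at least 2 kb, 15.3 with joined gaps, 8.23 with OE-low peaks and 12.6 without those chromosomes. The top 50% setting cut every list by score, the Fbxl19 and Rnf20 peak lists included. The end with an Fbxl19 summit (92.2% within 1 kb) gave 82.7% with the summit at an end of the differentiated domain and 87.9% with summits within 2 kb of an end, both chosen after seeing the data. Causes of these shifts were not tested.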
